A study of Mus musculus with 6 samples.

Results

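The acute phase proteins described here are 10 plasma proteins whose transcripts were followed in mice with and without Atxn2, the gene of the RNA-binding protein ataxin-2. They are the serum amyloid A proteins (Saa1, Saa2, Saa3, Saa4), haptoglobin (Hp), hemopexin (Hpx), the orosomucoids (Orm1, Orm2), serum amyloid P component (Apcs) and lipocalin 2 (Lcn2). They were chosen by gene symbol, and all 10 were found among the 22924 features with at least 1 tag. Of these features, 4469 are rows shared by more than 1 gene. Shares of all genes given below include such shared rows. Tags came from MACE, massive analysis of cDNA ends, an RNA sequencing method that takes its tags from the 3′ ends of polyadenylated transcripts, so that levels can be compared between genes without a length correction. There were 6 libraries, 1 per genotype in cerebellum, hippocampus and liver, from C57BL/6 mice aged 6 months that were homozygous for an Atxn2 knockout (KO) or wild type (WT). Each library pooled 3 animals, so a KO to WT ratio within a tissue has no replicate check. The sources used here do not give which part of Atxn2 was removed.

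The acute phase response is the change in plasma proteins that follows infection, tissue injury or inflammation. Cytokines such as interleukin 6 reach hepatocytes and act through STAT3, C/EBP and NF-kB factors on the promoters of genes for secreted proteins, several of which bind lipids, hemoglobin, heme or bacterial iron carriers. In brain these transcripts are normally low, although Lcn2 can be made there by reactive astrocytes and by endothelial cells.

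Library totals ran from 1774523 to 2727523 gene tags. The tissue labels matched the markers looked at: Pcp2, of Purkinje cells, had 7636 and 8697 tags in KO and WT cerebellum and at most 74 elsewhere. Nrgn, of forebrain neurons, had 8938 and 8940 tags in KO and WT hippocampus and at most 64 elsewhere. Alb, albumin, had 78242 and 119139 tags in KO and WT liver, but it was also read in the brain libraries, with 578 and 1008 tags in KO and WT cerebellum and 458 and 2465 in KO and WT hippocampus. Xist, the transcript of the inactive X chromosome, had 0 tags in all KO libraries and 34, 49 and 87 in WT cerebellum, hippocampus and liver, while the Y-linked Ddx3y had 81 to 176 tags in every library. The sex makeup of the pools and the genotype therefore cannot be told apart in any ratio below. In bulk tissue, fewer cells of a type and less RNA per cell cannot be told apart either.

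The direction of the KO to WT ratio depended on the tissue. In liver 9 of 10 acute phase transcripts were higher in the KO library, with log2 ratios of 1.31 for Hp and 1.24 for Lcn2, and Saa3 alone was lower. Orm2 stood at 1.55 without the tags it shares with Orm1 and at 0.58 with them. In both brain tissues every member with a ratio was lower in the KO library (7 in cerebellum and 8 in hippocampus), more so in hippocampus than in cerebellum at the summed level. Summed over the 10 members, KO and WT liver held 17138 and 11226 CPM, which here means tags per 1000000 gene tags of the library. The sums were 55.6 and 116 in KO and WT cerebellum, and 32.5 and 212 in KO and WT hippocampus. The liver sum was thus higher in the KO library and both brain sums were lower, with log2 KO to WT ratios of 0.73 in liver, -1.06 in cerebellum and -2.69 in hippocampus. Ratios in log2 form use counts scaled by TMM (trimmed mean of M-values), and their intervals are exact 95% Clopper-Pearson intervals, which cover counting error only.

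**Figure D1:**
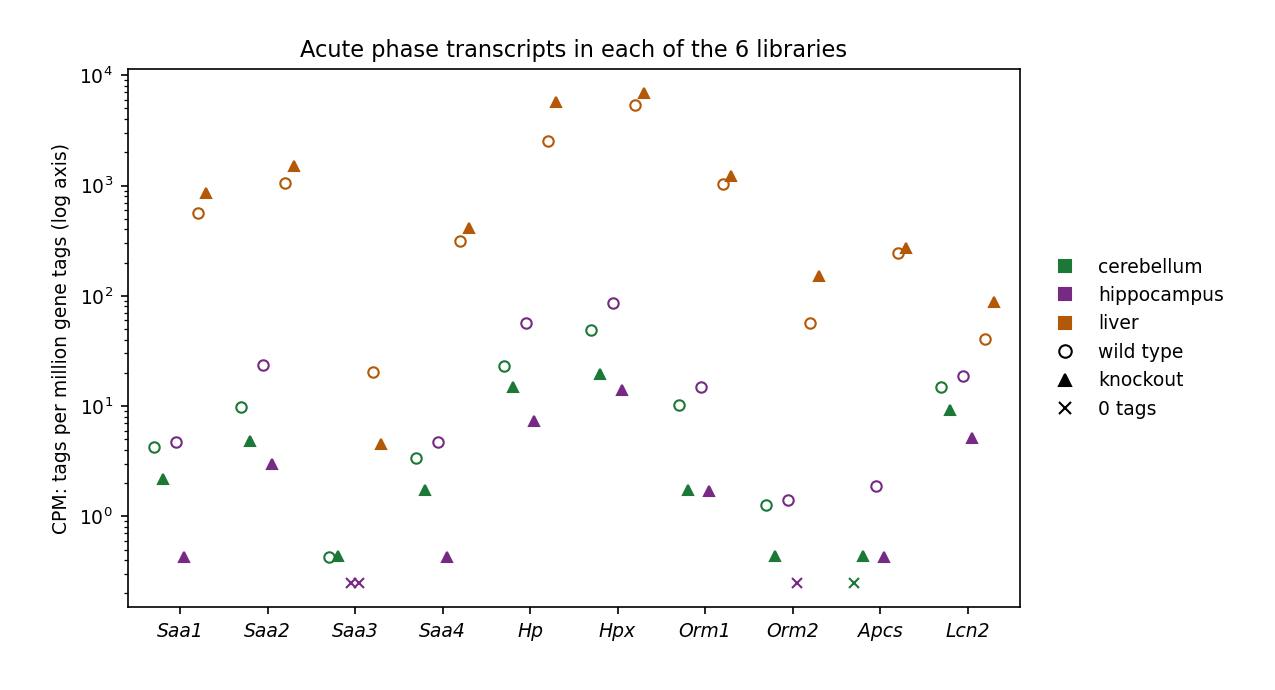
Level of each member in each library, in CPM on a log axis, with colour for tissue, open circles for wild type and filled triangles for knockout. A cross marks 0 tags and is placed at the foot of the axis. The liver libraries lie far above the brain libraries for all members but Lcn2 and Saa3.

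Serum amyloid A proteins are small apolipoproteins of high density lipoprotein. Saa1 and Saa2 are the main inducible forms made by the liver, Saa3 is made largely by macrophages and fat in mice, and Saa4 is the constitutive form. Their genes stand together on chromosome 7, within 42.3 kb of the GRCm38.p6 RefSeq annotation. Saa1, Saa2 and Saa4 had ratios of the same sign in each tissue. Saa3 was lower in KO liver and had no ratio in brain. The promoter windows of Saa1, Saa2 and Saa3 are printed here, from 250 bases before to 50 bases after the annotated start. Capitals mark the letters TTNNGNAA of a C/EBP motif and an NF-kB motif of 3 G, 5 bases of any kind and 2 C, searched on both strands. The windows come from RefSeq on GRCm38.p6, at chr7:46742931-46743230 on the minus strand for Saa1, chr7:46751583-46751882 on the plus strand for Saa2 and chr7:46715627-46715926 on the minus strand for Saa3.
Saa1 promoter window: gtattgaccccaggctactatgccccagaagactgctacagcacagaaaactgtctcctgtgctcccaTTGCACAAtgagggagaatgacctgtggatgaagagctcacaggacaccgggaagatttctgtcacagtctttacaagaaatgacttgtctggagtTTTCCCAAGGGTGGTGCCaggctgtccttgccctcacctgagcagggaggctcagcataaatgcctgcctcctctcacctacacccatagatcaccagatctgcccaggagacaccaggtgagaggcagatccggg
Saa2 promoter window: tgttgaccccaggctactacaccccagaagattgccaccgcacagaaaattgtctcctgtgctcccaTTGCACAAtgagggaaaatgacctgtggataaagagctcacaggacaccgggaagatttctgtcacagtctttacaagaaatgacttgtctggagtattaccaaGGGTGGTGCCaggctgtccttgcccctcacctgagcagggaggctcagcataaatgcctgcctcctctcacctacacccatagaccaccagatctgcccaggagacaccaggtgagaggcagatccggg
Saa3 promoter window: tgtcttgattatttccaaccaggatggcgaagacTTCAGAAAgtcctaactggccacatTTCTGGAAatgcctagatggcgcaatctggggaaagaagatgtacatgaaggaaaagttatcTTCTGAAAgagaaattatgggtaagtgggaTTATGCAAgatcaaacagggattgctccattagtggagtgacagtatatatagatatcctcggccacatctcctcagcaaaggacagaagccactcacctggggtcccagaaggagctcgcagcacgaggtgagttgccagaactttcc

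The Saa1 and Saa2 windows were identical at 287 of 299 aligned bases (96.0%). Both hold a C/EBP match near the distal end and an NF-kB match around 70 bases before the start. In Saa1 a second C/EBP match ends at the base before the NF-kB match, so that the capitals run on. Saa3 holds 4 C/EBP matches and no NF-kB match in this window. Over the 8 members with a window, 7 held the C/EBP letters and 4 the NF-kB letters, against 40.7% and 50.8% of all 32851 RefSeq windows of the same length. The STAT letters TTCNNNGAA were found in Apcs alone, against 8.30% of all windows, and TATAAA on the sense strand in Orm2 alone, against 8.32%. Short motifs of this kind are matches of letters and not measured sites. Hp and Orm1 are named only.

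Saa2 had 2692 tags in KO liver and 2874 in WT liver, which is 1517 and 1054 CPM. In brain it had 11 tags in KO and 23 in WT cerebellum, and 7 in KO and 50 in WT hippocampus. The WT hippocampus library was the highest of the brain libraries and the KO hippocampus library the lowest. The log2 KO to WT ratio of Saa2 was 0.65 in liver (0.57 to 0.72), -1.02 in cerebellum (-2.20 to 0.08) and -2.95 in hippocampus (-4.33 to -1.80). The cerebellum interval includes equality.

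Saa1 had 1524 tags in KO liver and 1522 in WT liver. Because the KO liver library held fewer tags in all, these are 859 and 558 CPM, a log2 ratio of 0.74 (0.64 to 0.85). It had 5 and 10 tags in KO and WT cerebellum and 1 and 10 in KO and WT hippocampus. The hippocampus ratio of -3.43 therefore rests on 1 tag, with an interval of -8.87 to -0.62. Saa1 and Saa2 transcripts are 93.5% identical over their aligned 3′ ends, with 16 mismatches in the last 250 bases, and no deposited row joined the pair.

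Saa4 had 736 and 853 tags in KO and WT liver, 4 and 8 in cerebellum, and 1 and 10 in hippocampus. Its order across libraries was that of Saa1. The log2 ratio was 0.53 in liver (0.39 to 0.67), -0.95 in cerebellum (-3.13 to 0.95) and -3.43 in hippocampus (-8.87 to -0.62). A further 3 tags in KO cerebellum lay in a row shared by Saa4 and Lin7a and were not given to Saa4.

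Saa3 went the other way in liver, with 8 tags in the KO and 55 in the WT library. In CPM these were 4.51 and 20.2. After TMM scaling the level was 4.11-fold lower in KO liver, a log2 ratio of -2.04 (-3.32 to -0.96). In brain it had 1 tag in each cerebellum library and 0 in both hippocampus libraries, so no ratio was formed. All 12 macrophage markers looked at had tags in both liver libraries, with sums of 706 and 822 CPM in KO and WT. Their median log2 ratio in liver was -0.15, with 1 interval below 0 and 0 above. Their part in the Saa3 ratio was not tested.

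Haptoglobin binds free hemoglobin and hemopexin binds free heme, and cell surface receptors take up both complexes. Their genes lie at chr8:109575128-109579172 (Hp) and chr7:105591611-105600116 (Hpx) of GRCm38.p6. Hp had 10242 tags in KO and 6914 in WT liver, or 5772 and 2535 CPM. It had 34 and 55 tags in KO and WT cerebellum, and 17 and 120 in KO and WT hippocampus. The KO library was the higher in liver and the lower in both brain tissues. The log2 ratio was 1.31 in liver (1.26 to 1.35), -0.65 in cerebellum (-1.31 to -0.004) and -2.93 in hippocampus (-3.76 to -2.19).

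Hpx was the most abundant member, with 12129 tags in KO and 14678 in WT liver, or 6835 and 5381 CPM. It had 45 and 115 tags in KO and WT cerebellum and 33 and 185 in KO and WT hippocampus. The log2 ratio was 0.47 in liver (0.43 to 0.50), -1.31 in cerebellum (-1.84 to -0.80) and -2.60 in hippocampus (-3.18 to -2.06). Hpx stood 2.12-fold above Hp in WT liver and 1.18-fold above it in KO liver, since the Hp ratio was the larger.

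Of the receptors and enzymes that clear hemoglobin and heme, Cd163, the haptoglobin-hemoglobin receptor of macrophages, had 15 and 42 tags in KO and WT liver, with a log2 ratio of -0.74 and an interval of -1.70 to 0.14. Lrp1, the hemopexin-heme receptor, had 525 and 844 tags there and a log2 ratio of 0.06 (-0.10 to 0.22). Hmox1, heme oxygenase, had 50 and 32 tags and a log2 ratio of 1.39 (0.72 to 2.07). The red cell transcript Hba-a1, of alpha globin, had a log2 KO to WT ratio of 1.19 in liver, 0.58 in cerebellum and 1.00 in hippocampus, so it was higher in the KO library of every tissue. It had the highest fitted change of the red cell list, whose medians were 0.78, 0.185 and 0.53 in those tissues. Intervals above 0 numbered 5, 3 and 4, with 0 below. Bpgm, the lowest of the list, had -0.16 (-0.49 to 0.17) in hippocampus. The part of red cells in the Hp and Hpx ratios was not tested.

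Orosomucoids are alpha-1 acid glycoproteins, carriers of lipophilic compounds in plasma. Orm1 and Orm2 lie within 21.3 kb of each other on chromosome 4. Orm1 had 2175 tags in KO and 2793 in WT liver, 4 and 24 in KO and WT cerebellum, and 4 and 32 in KO and WT hippocampus. Its log2 ratio was 0.38 in liver (0.30 to 0.46), -2.54 in cerebellum (-4.53 to -0.996) and -3.11 in hippocampus (-5.07 to -1.62). In cerebellum it had the lowest ratio among the members.

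Orm2 had 268 tags in KO and 153 in WT liver, a log2 ratio of 1.55 (1.26 to 1.85), and at most 3 tags in any brain library. The value is uncertain, because the last 250 transcript bases of Orm1 and Orm2 differ at 6 positions (97.6% identity). A joint Orm1/Orm2 row took 1058 tags in KO and 1337 in WT liver, more than Orm2 itself, with a log2 ratio of 0.40. With those joint tags added, the Orm2 ratio in liver was 0.58. The neighbouring Orm3, which is not a member, had 27 and 65 tags in KO and WT liver and a ratio of -0.53 (-1.23 to 0.14).

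Apcs, a pentraxin that coats amyloid and is a main acute phase protein of the mouse, is encoded at chr1:172893961-172895054 and had 480 and 665 tags in KO and WT liver. Its log2 ratio of 0.27 (0.10 to 0.44) was the smallest of the ratios above 0. In brain it had 1 and 0 tags in KO and WT cerebellum and 1 and 4 in KO and WT hippocampus.

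Lcn2, which binds bacterial siderophores and is encoded at chr2:32384637-32387739, had 157 tags in KO and 111 in WT liver, or 88.5 and 40.7 CPM. It had 21 and 35 tags in KO and WT cerebellum and 12 and 40 in KO and WT hippocampus. The brain libraries thus came closer to liver for Lcn2 than for any other member with more than 3 tags in each. The log2 ratio was 1.24 in liver (0.88 to 1.61), -0.69 in cerebellum (-1.54 to 0.13) and -1.85 in hippocampus (-2.91 to -0.89). Neutrophils also hold Lcn2, and of their markers S100a8 had 35 tags in each liver library, a log2 ratio of 0.74 (0.02 to 1.46), and 125 and 57 in KO and WT cerebellum. S100a9 had 19 and 15 tags in KO and WT liver, a log2 ratio of 1.08 (0.03 to 2.16). In KO and WT hippocampus it had 6 and 10 tags and -0.85 (-2.59 to 0.75). Cxcr2, the most abundant of those tested, had 18 and 32 tags in KO and WT liver and -0.09 (-1.01 to 0.79). Of the 8 markers with a mean of at least 1 CPM in liver, 3 intervals lay above 0 and 0 below. Summed over 13 neutrophil markers the level was 50.7 and 36.7 CPM in KO and WT liver, 142 and 94.1 in cerebellum, and 57.4 and 52.8 in hippocampus. Cxcr2 alone held 98 of the 134 KO and 80 of the 113 WT tags in hippocampus. In KO and WT liver 10 and 7 of the 13 had a tag, and the granule gene Mpo was at 0 in the liver and hippocampus libraries. Their part in the Lcn2 ratio was not tested.

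**Figure D2:**
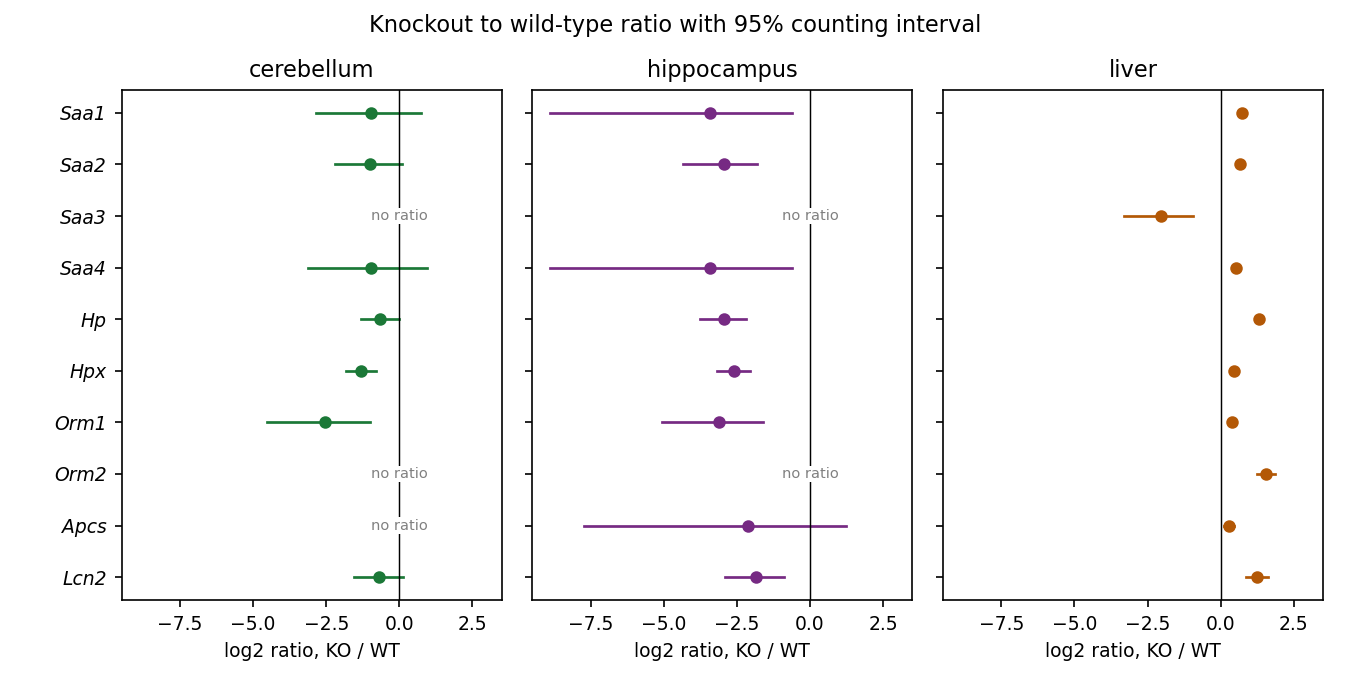
Log2 ratio of KO to WT for each member in each tissue, with exact 95% counting intervals as lines. No ratio was formed where both libraries held 3 tags or fewer. All liver ratios but that of Saa3 lie above 0, and all brain ratios lie below it.

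A size rule was applied within each tissue. It asked for a log2 ratio of 1 or more in either direction, an interval clear of 0, and a mean of at least 10 CPM after TMM scaling. In liver, where all 10 members reached that level, 3 were called higher (Hp, Orm2, Lcn2) and 1 lower (Saa3), against 1.53% and 3.39% of the 8248 genes at that level. The Orm2 call ends when the joint Orm1/Orm2 tags are added. Saa3 reached the level in liver through the WT library alone, where it was high. In hippocampus 3 of the 10 members reached that level and all 3 were called lower (Saa2, Hp, Hpx), against 1.04% of the 8558 genes at that level. Of these, Saa2 and Hp reached it through the WT library alone, where they were high. Their calls are thus partly set by the rule. In cerebellum 2 reached it and 1, Hpx, was called lower, against 0.316% of 8535. By interval alone, 9 members lay above 0 in liver and 1 below. Of the 13490 genes with a mean of at least 1 CPM after TMM scaling, 7.85% and 7.02% did. In hippocampus 7 members lay below 0, against 8.37% of 14105 such genes. In cerebellum 3 did (Hp, Hpx and Orm1), against 5.72% of 13903. The members counted here all reached that level, but in hippocampus Saa1 and Saa4 did so through the WT library alone, where they were high. Scaling matters in liver, where library totals moved every ratio by -0.12 and DESeq2 size factors by 0.105. The sign of all liver member ratios held under both, but with library totals the Apcs interval (-0.02 to 0.32) included 0, which left 8 members above 0.

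Hp, Hpx and Orm1 lay below 0 in both brain tissues and above 0 in liver by their intervals. Of all genes with a tag in every library, 55 of 12207 had that pattern, or 0.451%. It was not particular to the members. Hepatocyte markers such as Alb, Ambp, Fga and Fgb had it too, while Apoa1 and Apoh did not. So did Gc, Rbp4 and Serpinc1, plasma proteins that decrease in the acute phase.

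Genotype was then compared over tissues with edgeR's quasi-likelihood test on 11375 genes, with tissue as a block and Benjamini-Hochberg adjustment over all of them. The p-values rest on how far the KO to WT change varies from tissue to tissue and on the spread shared over genes. The variation among animals was not measured. The filter asked for 4.33 CPM in at least 3 libraries. Saa3, Orm2 and Apcs reached that in the 2 liver libraries alone and were not tested. Saa1, Saa4 and Orm1 reached it in brain through WT libraries alone. None of the 7 members tested passed an adjusted p of 0.05 for KO against WT in all tissues, where 0.0967% of all genes did. Hpx alone had an unadjusted p under 0.05, at 0.0334, with a log2 change of -1.01 ± 0.44 (SE) and an adjusted p of 0.998 (edgeR). DESeq2 and limma voom also called 0 members. With the liver libraries left out, and 1 residual degree of freedom, Hpx, Hp, Saa2 and Orm1 were called lower in KO brain, against 0.739% of all genes tested. Orm1 entered this fit through the WT libraries alone, where it was high. The log2 changes ± SE were Hpx at -1.96 ± 0.23 (edgeR adjusted p = 5.80e-08), Hp at -1.77 ± 0.30 (1.83e-04), Orm1 at -2.81 ± 0.48 (1.83e-04) and Saa2 at -2.02 ± 0.41 (0.0022). Lcn2 had -1.21 ± 0.34 and an adjusted p of 0.0868 (edgeR).

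The difference between tissues was itself tested, as the genotype effect in liver minus that in brain, with 1 residual degree of freedom, so that the test leans on the spread shared by all genes. The members tested passed in the direction of liver, where 1.00% of all genes tested did. Their number is partly set by the filter, since Saa1, Saa4 and Orm1 entered with WT brain libraries in which they were high and with none of the KO brain libraries. With a filter by tissue, chosen after seeing the data, all 10 members were tested and 6 passed, and with no filter 5 of 10 did. The log2 difference was 3.18 ± 0.56 (SE) for Orm1 with an edgeR adjusted p of 1.03e-05. It was 3.07 ± 0.48 for Hp (edgeR adjusted p = 2.21e-07) and 2.67 ± 0.47 for Saa2 (edgeR adjusted p = 1.28e-05). Lcn2 and Hpx had 2.45 ± 0.39 and 2.42 ± 0.48, with edgeR adjusted p-values of 6.82e-07 and 1.77e-04. Saa1 at 2.46 ± 0.67 and Saa4 at 2.34 ± 0.67 had adjusted p-values of 0.0231 and 0.0362 (edgeR), and these did not hold under every alternative. With library totals as the scaling they were 0.191 and 0.258, and with no filter 0.0676 and 0.144. DESeq2 gave Saa1 an adjusted p of 0.11. DESeq2 size factors moved the median gene by 0.131 in this contrast, and library totals by -0.114.

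For each of the 7 members with both values, liver differed more from hippocampus than from cerebellum. Taking each brain tissue alone, liver minus hippocampus ran from 2.38 for Apcs to 4.24 for Hp, and liver minus cerebellum from 1.48 for Saa4 to 2.92 for Orm1. These single-tissue differences have no residual degrees of freedom and are values without a test.

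Liver held more of each tested member than brain did. The 7 that passed the filter, all of them through liver libraries in part, were higher in liver by the edgeR test, where 33.6% of all genes were, with log2 differences from 3.70 ± 0.33 (SE) for Lcn2 to 9.24 ± 0.33 for Saa1. Library totals in place of TMM moved the median gene by -1.31 in this contrast and turned no member's direction. Between hippocampus and cerebellum 0 of 7 members passed, and 0 had an unadjusted p under 0.05, where 28.4% of all genes passed (edgeR). DESeq2 and limma voom called 0 as well. Leaving out the KO hippocampus library gave 4 members higher in hippocampus (Saa2, Hp, Orm1, Lcn2), and leaving out the WT hippocampus library gave 1 lower (Lcn2). Leaving out either liver library gave 1 higher, Saa2, with edgeR adjusted p-values of 0.0183 without KO liver and 0.0378 without WT liver.

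Within liver the order of levels was Hpx, Hp, Saa2, Orm1, Saa1, Saa4, Apcs, Orm2, Lcn2 and Saa3 in both libraries, with the joint Orm1/Orm2 tags set aside. With them added, Orm1 stood above Saa2, and Orm2 above Saa4 and Apcs, in both. Without them, neighbours in this order differed beyond counting error in both, except Saa2 and Orm1 in WT liver, whose ratio was 1.03 (0.976 to 1.08). The step from Lcn2 to Saa3 was 19.6-fold in KO liver and 2.02-fold in WT liver.

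The brain levels were set against liver levels of the same genotype. In WT cerebellum and hippocampus the 9 members without Lcn2 had medians of 0.925% and 1.49% of their liver level. In the KO tissues the medians were 0.288% and 0.126%. Lcn2 stood at 36.4% (24.2 to 53.7) in WT cerebellum and 45.9% (31.2 to 66.5) in WT hippocampus, and at 10.4% and 5.81% in the KO tissues. Hepatocyte markers, 20 genes such as Alb and Apoa1, had medians of 0.714% and 1.37% in WT cerebellum and hippocampus and 0.421% and 0.287% in the KO tissues. Their summed level was 524 and 914 CPM in KO and WT cerebellum, 473 and 2036 in KO and WT hippocampus, and 108226 and 109678 in KO and WT liver. The hepatocyte markers thus moved with the members in brain, and their log2 ratios had medians of -0.86 (cerebellum), -2.10 (hippocampus) and 0.07 (liver). In brain alone, 13 of 16 tested were called lower in KO by edgeR and 0 higher, with a median log2 change of -1.52. Of all genes tested 0.739% were called lower there. The liver-minus-brain test called 5 of 17 in edgeR, 15 in limma voom and 1 in DESeq2, with a median edgeR difference of 1.63. The 5 were higher, against 1.00% of all genes tested in edgeR. Apob, called here and in brain alone, reached both filters in brain through WT libraries alone, where it was high. Alb was not called by edgeR, at 1.78 ± 0.72 (SE) and an adjusted p of 0.299. Of the 20 markers, 18 to 20 had a tag in each brain library, and those at 0 in some were Cps1 and Otc. Whether RNA of hepatocytes has a part in the brain values of the members was not tested.

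**Figure D3:**
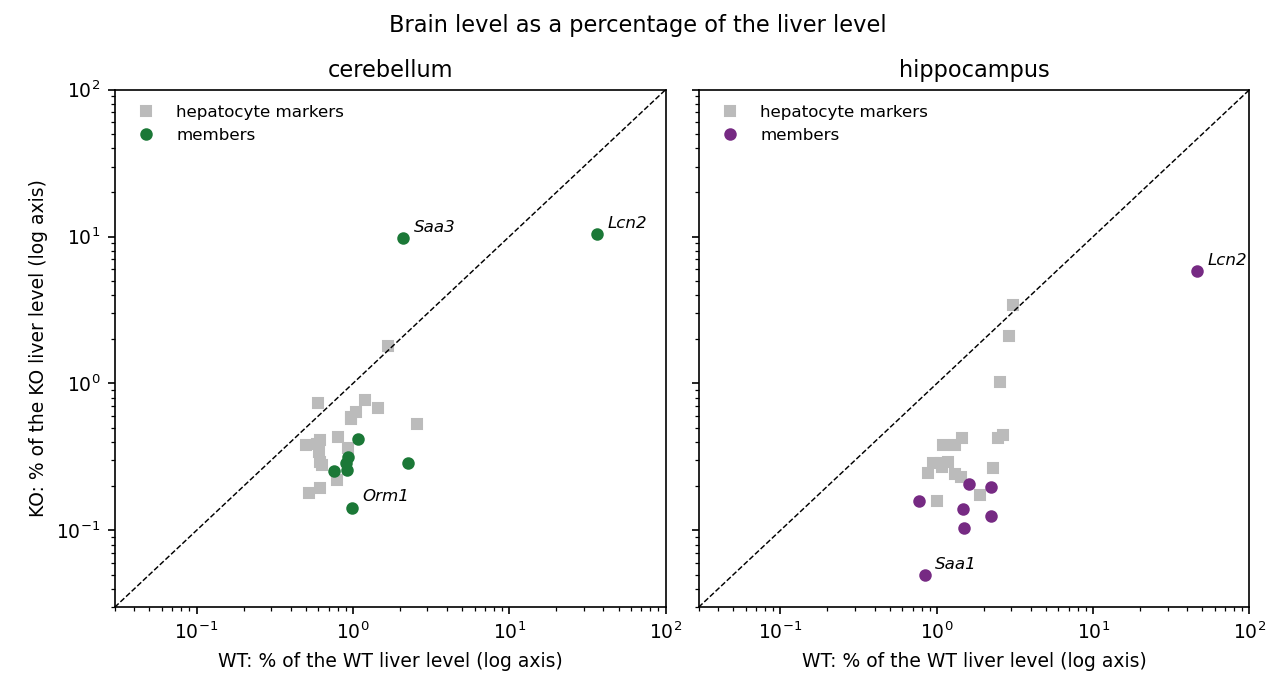
Level of each member (circles) and hepatocyte marker (grey squares) in brain, as a percentage of the level in the liver library of the same genotype, with WT on the horizontal and KO on the vertical log axis. Genes with a tag in all libraries compared are shown, and the dashed line marks equal percentages. Most points lie below the line, Lcn2 lies far to the right of the others, and Saa3 in cerebellum rests on 1 tag in each brain library.

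Other plasma proteins that increase in the acute phase were read from a list of 32 genes. In the liver-minus-brain test 19 of 27 tested were higher and 3 lower by edgeR, against 114 and 37 of all 11375 genes. Of those called higher, Crp and Serpina3m reached the filter in brain through WT libraries alone, where they were high. DESeq2 called 6 of the list in all. The median log2 KO to WT ratio was 0.23 in liver, -0.997 in cerebellum and -2.21 in hippocampus. All genes with a mean of at least 1 CPM had medians of -0.06, 0.00 and 0.00. Lrg1, a leucine-rich glycoprotein, had 1608 and 1532 tags in KO and WT liver and a liver log2 ratio of 0.81 (0.71 to 0.91), near that of Saa1. Crp, C-reactive protein, which responds little in mice, had 520 and 829 tags and 0.07 (-0.09 to 0.23). The fibrinogen chain Fga had 0.54 (0.50 to 0.58) and complement C3 -0.08 (-0.13 to -0.03) in liver.

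The 3 genes of that list that passed in the other direction were Hamp2 and the metallothioneins Mt1 and Mt2. Hamp2, a hepcidin gene, had 40 tags in KO and 3437 in WT liver, with a liver log2 ratio of -5.68. Hamp, the main iron-regulating hepcidin, had 4516 and 10765 tags and -0.51 (-0.56 to -0.46). Mt1 had 514 and 3141 tags and -1.87, and Mt2 226 and 1577 tags and -2.06. Among 13 plasma proteins that decrease in the acute phase, the median log2 ratio was 0.02 in liver, -0.76 in cerebellum and -1.89 in hippocampus. Of 11 tested, 3 passed as higher in the liver-minus-brain test of edgeR (Gc, Rbp4, Serpinc1), where 1.00% of all genes did. With limma voom 8 were called and with DESeq2 1. Alb, Apoa1, Apoa2 and Ahsg stand both on this list and among the hepatocyte markers, and Fga, Fgb and Ambp both there and on the list of other acute phase proteins.

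Of the cytokine signalling genes upstream of these promoters, 0 of 13 tested passed for genotype or for the liver-minus-brain difference in edgeR, DESeq2 or limma voom. Among all 11375 genes 0.0967% passed for genotype in edgeR, and 114 were higher and 37 lower for the difference. A count of 0 in so short a list is near those shares. At an unadjusted p under 0.05 edgeR gave 1 gene for each. Lifr, a receptor subunit of leukemia inhibitory factor, had 79 and 292 tags in KO and WT liver and a log2 ratio of -1.14 (-1.52 to -0.78), with an edgeR adjusted p of 0.0555 for the liver-minus-brain difference. By the size rule in liver, Lifr and Myd88 were called lower and 0 genes of the list higher, against 3.39% and 1.53% of 8248 genes. Myd88 had 5 and 27 tags in KO and WT liver and -1.69 (-3.42 to -0.29). It reached the level of that rule through the WT library alone. Stat3 had 113 and 168 tags and 0.17 (-0.19 to 0.52), and its inhibitor Socs3 17 and 20 tags and 0.51 (-0.52 to 1.51). The interleukin 6 receptor Il6ra had 36 and 63 tags and -0.07 (-0.70 to 0.55). Of the hepatic factors, Cebpb had 78 and 149 tags and -0.19 (-0.61 to 0.21), and 0 of 5 tested passed for genotype or for the liver-minus-brain difference in edgeR, DESeq2 or limma voom, with 0 at an unadjusted p under 0.05.

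**Figure D4:**
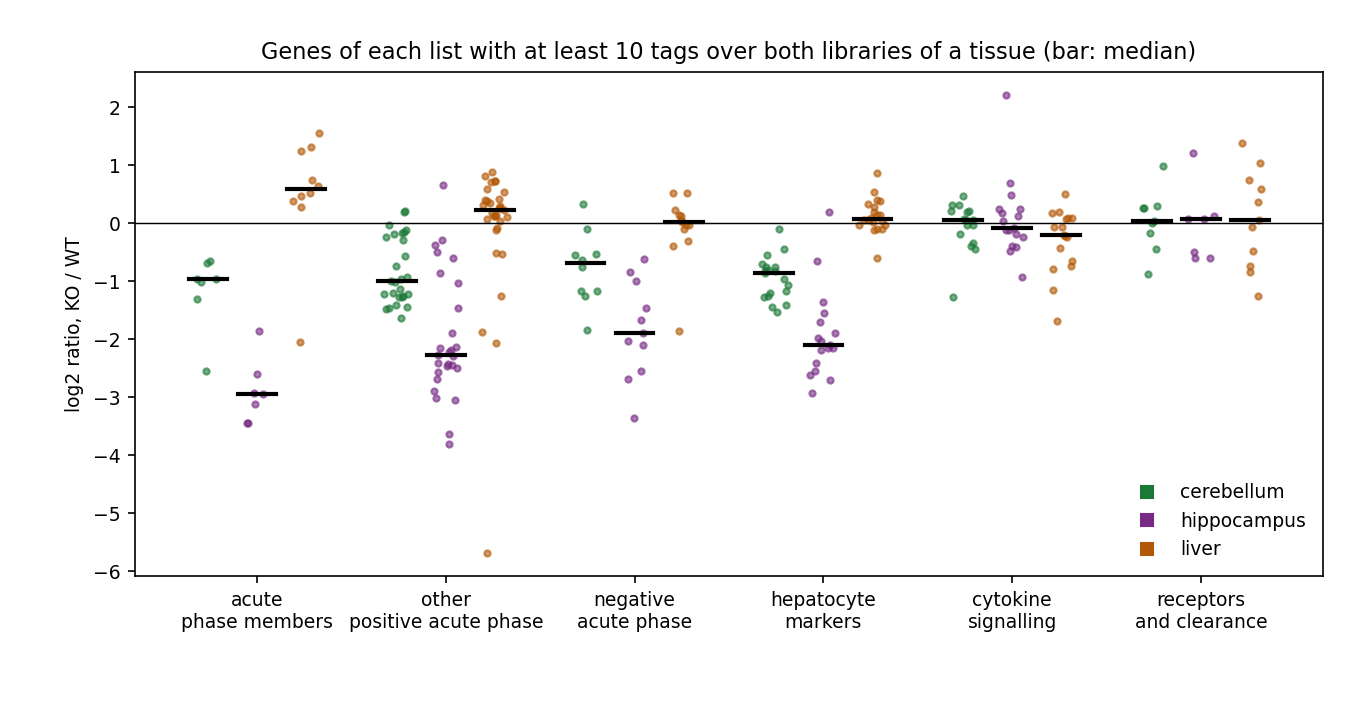
Log2 ratio of KO to WT for single genes of 6 lists, by tissue, with black bars for medians. Genes with at least 10 tags over both libraries of a tissue are shown, and a count of 0 was set to 3 tags. The lists of plasma proteins and hepatocyte markers have medians below 0 in brain and near or above 0 in liver, and the cytokine signalling and receptor lists have medians near 0 in brain.

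The genes whose 3 KO to WT log2 ratios lay nearest to those of Hp, by Euclidean distance over the 3 tissues, were Zfp36 (0.29), C6 (0.72) and Saa2 (0.76). Zfp36 had 58 and 41 tags in KO and WT liver and few in brain, with 1 and 7 in KO and WT hippocampus. Nearest to Saa2 were Bcl3 (0.39), Apob (0.41) and Serpina1e (0.45). Nearest to Lcn2 were Lrg1 (0.69), Dao (0.72) and Rbp4 (0.74). Dao had 4 tags in each liver library, so its liver ratio rests on few tags.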

How the data were processed

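The authors deposited 1 table of raw sense and antisense tag counts per RefSeq record for all 6 libraries, per the file headers. Base calling used CASAVA 1.8.2 and the build was mm9, per the submitters' processing notes, while the deposited table names a GRCm38 set. No aligner was given in the sources used here. Labels and protocol text differ in tissue and age, and the sample labels were followed.

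Sense counts were summed per symbol. A row shared with predicted genes went to its named gene, and a row with more than 1 named gene was kept as a joint feature. Rows naming no gene were left out of totals: mitochondrial rows took 9.31% to 12.9% of all tags, genomic contigs 6.15% to 9.44% and tags without a match 7.21% to 8.83%. Antisense tags took 7.75% to 10.5%. CPM are tags per 1000000 gene tags. Where a ratio met a count of 0, that count was replaced by a floor of 3 tags.

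Fits used edgeR 4.0.16 (quasi-likelihood, TMM, filterByExpr by genotype) on 11375 genes, with 2 residual degrees of freedom, or 1 for the liver-minus-brain difference, and a threshold of 0.05 after Benjamini-Hochberg adjustment. Because the titles repeat the animal numbers, the tissues of a genotype were treated as coming from 1 pool. The script was tested on simulated data. Alternatives were other scalings and filters, DESeq2 1.42.0, limma 3.58.1 voom, other treatments of joint rows, no tissue block and libraries left out. R 4.3.3 and Python 3.11.15 were used.

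All 10 members are named. From each list the highest, lowest and most abundant gene by the fitted change across tissues, with a mean CPM of at least 10, and genes that passed a test could be named. For Hp, Saa2 and Lcn2 the 3 genes nearest in ratio are given. The members and lists were chosen with earlier results of these data known. The clearance and signalling genes Cd163, Stat3, Socs3, Il6ra and Myd88 were named after their values were seen. So were the neutrophil marker S100a9, the positive acute phase genes Hamp and Orm3, and the tissue markers. Promoter windows are from RefSeq on GRCm38.p6, which had entries for 8 of 10 members.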

Additional observations from a re-analysis of the deposited data

Results flagged for a closer look

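The genotype effect differed between liver and brain for the 7 members tested, by a test of the difference itself in edgeR. Of all genes tested 1.00% passed in that direction. Saa1, Saa4 and Orm1 passed the filter in brain through WT libraries alone, in which they were high. The log2 difference, liver minus brain, was 2.46 for Saa1, 2.67 for Saa2, 2.34 for Saa4, 3.07 for Hp, 2.42 for Hpx, 3.18 for Orm1 and 2.45 for Lcn2. Saa1 and Saa4 lost the call with library totals (edgeR adjusted p = 0.191 and 0.258) and with no filter (0.0676 and 0.144), and DESeq2 called 4 of the 7.

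Antisense tags, which entered no comparison, passed the limit of 3 that a count of 0 allows for 2 members. Hp had 15 antisense tags in KO liver and 12 in WT liver, beside 10242 and 6914 sense tags. Hpx had 9 antisense tags in WT liver, beside 14678 sense tags.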

How the results depend on the processing

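Pools without replicates limit every ratio within a tissue, brain counts of 1 to 50 limit most brain ratios, and 1 library, WT hippocampus, holds the highest brain level of 9 of 10 members. Chosen after seeing the data was a filter by tissue, under which Saa4 lost its liver-minus-brain call (edgeR adjusted p = 0.079), as it did with joint rows added (0.191). DESeq2 gave no adjusted p for Saa4 and Lcn2 there. KO and WT could not be paired by animal, because each group holds 1 pooled library. The fits across tissues compare KO and WT within a tissue through the tissue block, and compare tissues within a genotype through the genotype term.

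Members called for KO against WT across tissues numbered 0, with no filter 2 (Hpx lower, Orm2 higher), and 0 to 4 with 1 tissue left out, where leaving out hippocampus called Orm2 higher. Members called between hippocampus and cerebellum numbered 0, and 0 to 4 with 1 library left out. The liver-minus-brain count was 7, and 4 with DESeq2. The size rule in cerebellum called 1 member, 2 with a mean CPM of at least 1, 2 at a log2 ratio of 0.5 and 0 at 2. In hippocampus it called 3, and 7 with a mean CPM of at least 1. There Saa2 and Hp reached the first limit, and Saa1 and Saa4 the second, through the WT library alone. In liver it called 4, 7 at a log2 ratio of 0.5 and 1 at 2. The other counts stayed within 1.5 times.

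The fitted KO to WT change across tissues, which no member passed, turned sign as follows, and the cause was not tested. DESeq2 gave -0.88 for Saa1, -0.94 for Saa4 and -0.33 for Lcn2. With limma voom it was 0.25 for Saa2, 0.62 for Hp and 0.032 for Orm1. Without the tissue block it was 0.63 for Saa2, 1.29 for Hp, 0.45 for Hpx and 0.37 for Orm1. With 1 tissue left out it ran from -2.02 to 0.31 for Saa2, -1.77 to 0.61 for Hp and -1.21 to 0.68 for Lcn2. For hippocampus against cerebellum, Saa4 turned to -0.068 with library totals, -0.065 with DESeq2, -0.39 with voom and -0.26 with joint rows added, and Lcn2 to -0.0405 with library totals and -0.094 with voom. With 1 library left out that contrast ran from -2.87 to 0.95 for Saa1, -1.29 to 1.95 for Saa2, -2.48 to 1.18 for Saa4, -1.60 to 1.95 for Hp, -0.98 to 1.38 for Hpx, -1.61 to 1.85 for Orm1 and -1.41 to 1.09 for Lcn2.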

Other observations

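Markers of other cells were read in the same libraries. Astrocyte reactivity markers, which include Lcn2, had 1 of 9 tested genes called in the liver-minus-brain test by edgeR. That gene was Lcn2, called higher, against 1.00% of all genes tested. Serpina3n, an acute phase protease inhibitor that reactive astrocytes also make, had 150 tags in KO and 88 in WT hippocampus, a log2 ratio of 0.66 (0.27 to 1.05), while in cerebellum it had 8 and 20 tags and -1.27 (-2.67 to -0.03). It was named after its values were seen, as the gene of both lists whose hippocampus ratio lay above 0. For choroid plexus markers the log2 ratios had medians of -0.90 (cerebellum) and -0.11 (hippocampus), and Ttr, which choroid plexus and liver both make, had 7929 and 11823 tags in KO and WT cerebellum, and 424 and 1074 in KO and WT hippocampus. Prlr, the prolactin receptor, passed as lower in KO over all tissues by edgeR, with a log2 change of -1.29 ± 0.22 (SE) and an adjusted p of 0.02. It had 105 and 493 tags in KO and WT liver and 13 and 32 in cerebellum, but 10 and 9 in hippocampus, a log2 ratio of 0.04 there (-1.41 to 1.52). Red blood cell markers had 1 of 7 tested genes called for genotype, Hba-a1, against 0.0967% of all genes. Hba-a1 was higher in KO with a log2 change of 0.88 ± 0.15 and an edgeR adjusted p of 0.02. DESeq2 and limma voom called neither Prlr nor Hba-a1. Macrophage and neutrophil markers had 0 genes called for genotype by edgeR, DESeq2 or limma voom, with 0 of 6 and 2 of 3 at an unadjusted p under 0.05 in edgeR.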
